A study of Mus musculus with 6 samples.

Results

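The genes described here encode the parts with which a macrophage senses bacterial lipopolysaccharide (LPS), passes the signal on, restrains it and finally inactivates the ligand. The 10 genes Cd14, Ly96, Myd88, Ticam1, Irak2, Irak3, Irak4, Tnfaip3, Tnip1 and Aoah were picked by name from a table of 57010 genes. They were measured in RAW 264.7 cells, an established mouse macrophage line, as poly(A) RNA. Per the series description, all cells had been stimulated with LPS and then given extracellular vesicles (EVs) of tendon stem cells. The vesicles came from cells kept in normoxia (normoxic-EV, 3 libraries) or preconditioned in hypoxia (hypoxic-EV, 3 libraries). No cells free of LPS or of vesicles enter the comparison, and every difference below is hypoxic-EV set against normoxic-EV. The labels give neither LPS dose nor times, and do not say whether libraries of a group came from separate cultures. The p-values therefore measure the spread between these libraries, which may be technical.

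LPS is handed by the surface protein CD14 to the complex of TLR4 and MD-2, the product of Ly96. The occupied receptor recruits adaptors. MyD88 binds the IRAK kinases and leads to NF-kB and inflammatory cytokines, while TRIF, the product of Ticam1, leads to interferon genes and prolonged NF-kB activity. Macrophages limit the signal with IRAK-M, the product of Irak3, and with the ubiquitin-editing protein A20, the product of Tnfaip3, and its partner ABIN1, the product of Tnip1. They end the stimulus with acyloxyacyl hydrolase, the product of Aoah, which strips fatty acyl chains from LPS.

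Aoah differed most, at 3.28-fold less transcript in hypoxic-EV, and Irak3 followed at 1.64-fold less. Tnfaip3 was 1.37-fold lower. Cd14, Ly96, Myd88, Ticam1 and Tnip1 were lower by between 1.11-fold and 1.30-fold. Irak2 and Irak4 overlapped between the groups. At an adjusted p under 0.05 in edgeR (quasi-likelihood), 8 of the 10 genes were called lower and 0 higher in hypoxic-EV. Of all 13303 genes tested, 44.2% were called, 21.5% lower and 22.7% higher. The libraries of the 2 groups did not overlap for the same 8 genes, all lower in hypoxic-EV, beside 52.8% of tested genes, 26.1% lower and 26.6% higher. No gene of the 10 was higher at an unadjusted p under 0.05 in edgeR, and DESeq2 and limma voom also called 0 higher. The 10 genes were chosen with this comparison known, so their counts and differences are given as a description and no p is attached to them. Their median log2 fold change was -0.30, beside -0.001 for all tested genes, and all 10 passed the filter on low counts.

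**Figure D1:**
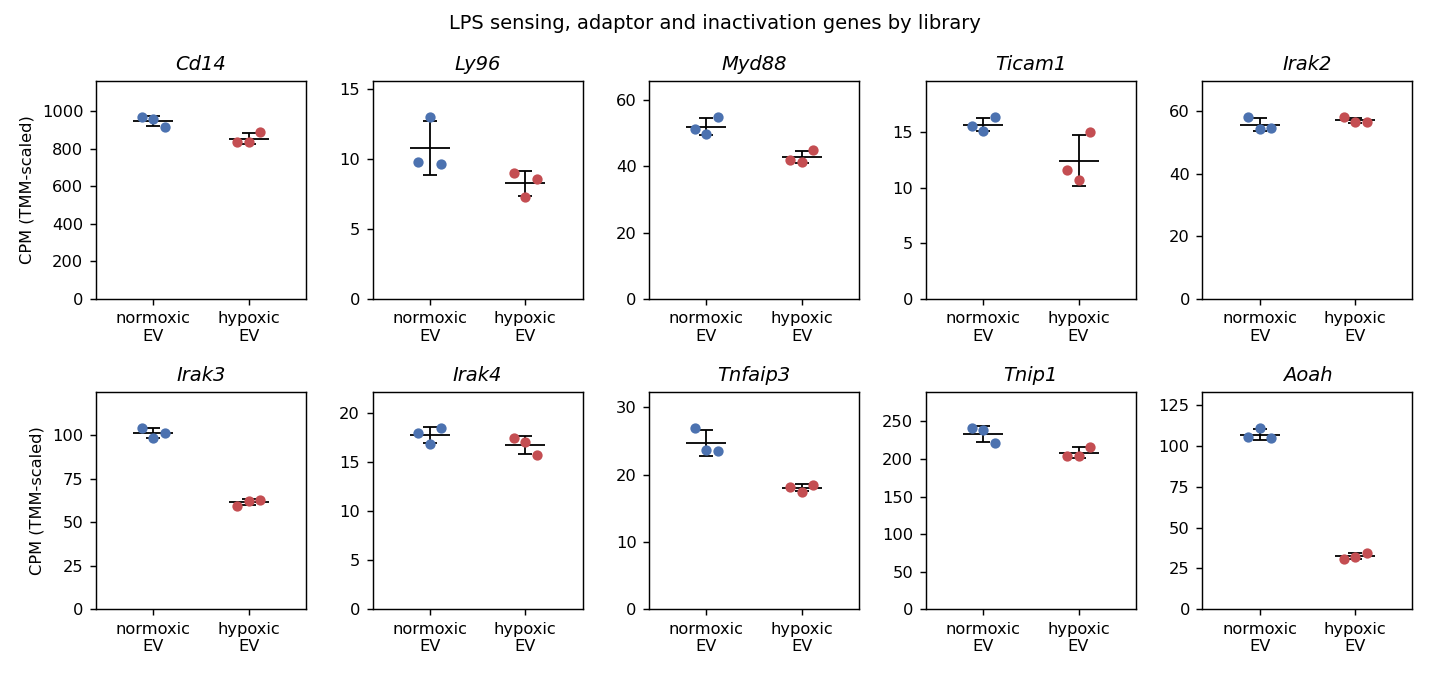
Counts scaled to library size (CPM, TMM-scaled, y axis from 0) of each of the 10 genes in the 3 normoxic-EV libraries (blue) and the 3 hypoxic-EV libraries (red), with the mean and SD in black. Aoah lies between 104 and 111 CPM in normoxic-EV and between 30.8 and 34.3 CPM in hypoxic-EV, while the points of Irak2 and Irak4 overlap.

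**Figure D2:**
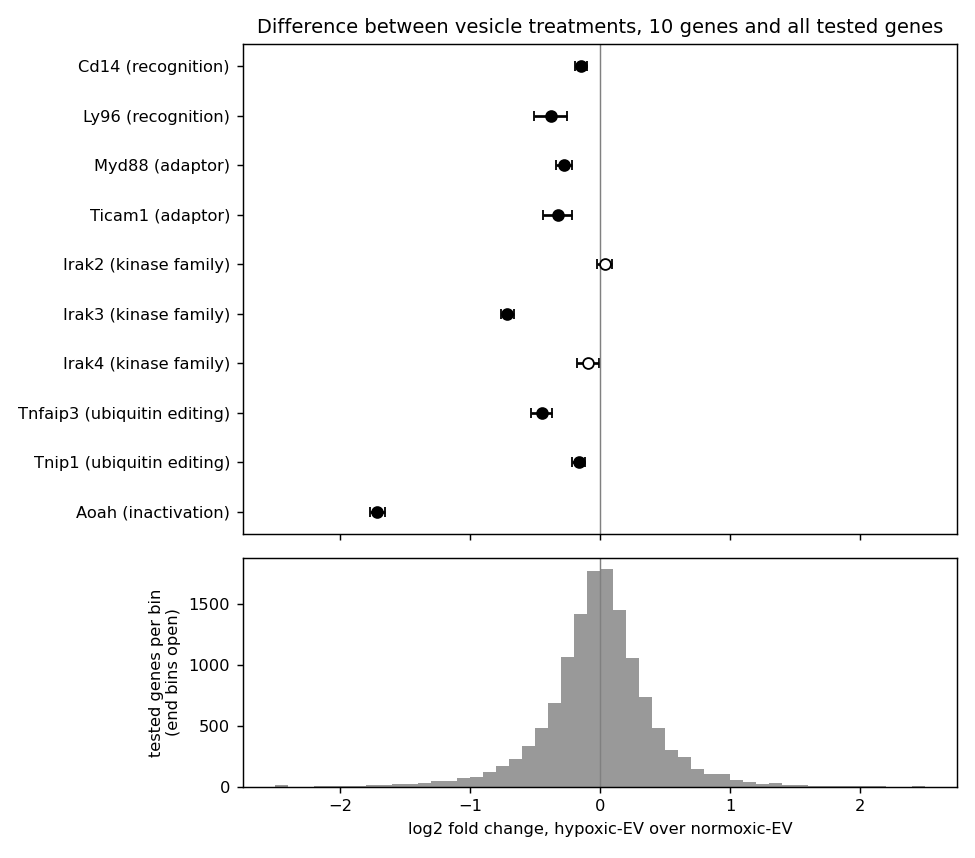
Log2 fold change of hypoxic-EV over normoxic-EV with its SE for the 10 genes (upper panel, filled points called by edgeR, open points not called) above the distribution over all 13303 tested genes (lower panel). Aoah at -1.71 and Irak3 at -0.71 lie farthest from 0, and Irak2 at 0.035 lies nearest.

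The labelled cell type was checked against markers. Of 10 macrophage markers, 9 passed the filter and Mertk did not. Their summed level was 9756 to 10157 CPM in normoxic-EV and 7768 to 8158 CPM in hypoxic-EV, and most of it was Lyz2. Of the 9 tested, 6 were called lower and 2 higher, beside 21.5% lower and 22.7% higher of all tested genes. None of 14 stromal and tendon markers passed the filter, 6 of them were at 0 in every library, and their summed level lay between 1.07 and 2.39 CPM. Of 11 neutrophil and dendritic cell markers 3 passed the filter, and their sum was 239 to 272 CPM in normoxic-EV and 99.3 to 123 CPM in hypoxic-EV. Nearly all of it was S100a8, which LPS-stimulated macrophages also express, whereas Elane was at 0 and Ly6g and Mpo did not exceed 0.0589 and 0.266 CPM. Of 9 lymphocyte markers 5 were at 0, the summed level was at most 1.07 CPM, and the 1 tested, Cd79a, was called higher. The part of these shifts in the results was not tested. In such bulk RNA, fewer cells of a kind and less RNA per cell cannot be told apart. Library totals ran from 16751665 to 23422328 counts.

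Per transcript length, the 10 genes spanned a wide range of levels. Cd14 stood at 546 ± 14.8 FPKM (fragments per kilobase, scaled to library total, SD, n = 3) in normoxic-EV and 493 ± 15.1 FPKM in hypoxic-EV. That was above 99.5% of tested genes. Tnip1 followed at 65.98 ± 2.91 and 58.8 ± 1.72 FPKM. In normoxic-EV the order then ran Irak3, Myd88, Aoah, Irak2, Ly96, Ticam1, Irak4 and Tnfaip3, which was lowest at 3.42 ± 0.258 FPKM. Neighbours in this order did not overlap, except Irak2 with Ly96 and Irak4 with Tnfaip3. In hypoxic-EV, Aoah moved from the fifth place to the seventh, from 18.0 ± 0.627 to 5.47 ± 0.249 FPKM, and came below Irak2 and Ly96. There only Irak3 and Myd88 overlapped among neighbours, at 16.7 ± 0.323 and 16.6 ± 0.688 FPKM. FPKM depend on the authors' gene lengths, which for Tnfaip3 came to 7226 bases.

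**Figure D3:**
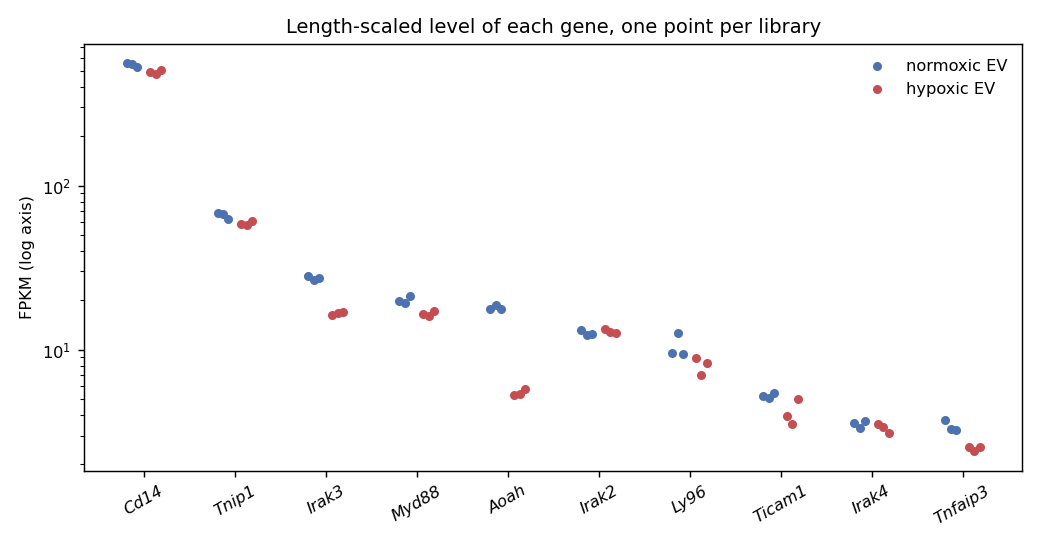
FPKM on a log axis for the 10 genes, ordered by their mean in normoxic-EV, with a point for each library (blue normoxic-EV, red hypoxic-EV). Cd14 at about 546 and 493 FPKM stands above the other 9 genes, and the hypoxic-EV points of Aoah lie near 5.47 FPKM.

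Both recognition genes were lower in hypoxic-EV, and the estimate for Ly96 was the larger in size. On FPKM, Cd14 exceeded Ly96 by 52.8 ± 8.08-fold in normoxic-EV and 61.5 ± 6.49-fold in hypoxic-EV (SD, n = 3). These ratios overlapped, so the order of the 2 differences is uncertain. Cd14 (ENSMUSG00000051439, a protein-coding gene on chromosome 18) was counted at 966, 956 and 916 CPM in normoxic-EV replicates 1 to 3 and at 837, 836 and 888 CPM in hypoxic-EV replicates 1 to 3. The groups did not overlap, but the highest hypoxic-EV library came close to the lowest normoxic-EV library. The log2 fold change was -0.15 (SE 0.0462), larger in size than that of 38.3% of tested genes. It was no longer called without normoxic-EV replicate 1 (-0.131) or normoxic-EV replicate 2 (-0.145). CD14 has no signalling domain of its own and serves to load LPS onto the receptor.

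Ly96 (ENSMUSG00000025779, chromosome 1, 16758275 to 16779835, GRCm39) was the second recognition gene. Its length is 1021 bases, and it had 142 to 222 counts a library. It stood at 9.74, 12.9 and 9.59 CPM in normoxic-EV and 8.96, 7.24 and 8.51 CPM in hypoxic-EV. The normoxic-EV replicate 2 was high and the groups were otherwise close, with a coefficient of variation of 17.6% in normoxic-EV. The log2 fold change was -0.38 (SE 0.128), larger in size than that of 73.1% of tested genes. Without normoxic-EV replicate 2 it was -0.235 and without hypoxic-EV replicate 2 -0.295, and neither was called, nor was DESeq2's value of -0.38.

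Of the adaptors, Myd88 (ENSMUSG00000032508, chromosome 9, 119165000 to 119170477, GRCm39, minus strand) stood at 51.3, 49.8 and 54.8 CPM in normoxic-EV and 42.0, 41.4 and 45.0 CPM in hypoxic-EV. All hypoxic-EV libraries were below all normoxic-EV libraries, and the log2 fold change was -0.28 (SE 0.0618). Acaa1a overlaps Myd88 on the other strand over 1736 bases, with a total count of 67.5% of that of Myd88, and differed by 0.16 on the log2 scale (SE 0.0932), which was not called (edgeR adjusted p = 0.162). The sources used here do not state whether the counting used strand. The Myd88 promoter is shown because it held the only interferon response motif among the promoters searched. It is the 250 bases before the start from RefSeq's GRCm38.p6 (chr9:119340019-119340268, minus strand), 5′ to 3′, with the motif in capitals: GAAA, any 2 bases, then GAAA.
Myd88 promoter: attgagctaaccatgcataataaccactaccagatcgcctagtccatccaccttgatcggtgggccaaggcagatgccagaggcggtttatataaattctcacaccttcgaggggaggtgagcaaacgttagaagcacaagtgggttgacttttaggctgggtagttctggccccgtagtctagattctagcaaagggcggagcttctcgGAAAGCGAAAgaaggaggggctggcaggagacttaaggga

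Ticam1 (ENSMUSG00000047123, chromosome 17, 56576319 to 56583786, GRCm39) encodes TRIF, the adaptor of the interferon arm. It stood at 15.6, 15.1 and 16.3 CPM in normoxic-EV and 11.6, 10.7 and 15.0 CPM in hypoxic-EV. The hypoxic-EV replicate 3 lay just under the normoxic-EV libraries and apart from the other hypoxic-EV libraries, with a coefficient of variation of 18.6% in that group against 3.95% in normoxic-EV. The log2 fold change was -0.33 (SE 0.111). It was not called by DESeq2 or without hypoxic-EV replicate 1 (-0.28), hypoxic-EV replicate 2 (-0.22) or normoxic-EV replicate 3 (-0.29). Without hypoxic-EV replicate 3 it was -0.495, the largest of the values with a library left out, and was called. That library was also the hypoxic-EV library nearest to normoxic-EV for each other called member except Ly96. On FPKM, Myd88 exceeded Ticam1 by 3.85 ± 0.0431-fold with normoxic-EV and 4.06 ± 0.535-fold with hypoxic-EV (SD, n = 3), values that overlapped.

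The IRAK genes did not move together. Irak3, whose product IRAK-M lacks effective kinase activity and restrains the MyD88 pathway in macrophages, was the only gene of the family called. Irak3 (ENSMUSG00000020227, chromosome 10, 119977553 to 120038035, GRCm39) stood at 104, 98.1 and 101 CPM in normoxic-EV and 59.5, 62.3 and 62.9 CPM in hypoxic-EV. The groups were far apart beside a spread of about 3% within each. The log2 fold change was -0.71 (SE 0.0513), larger in size than that of 90.9% of tested genes. Tmbim4 shares 541 bases with Irak3 on the other strand, had a total count of 61.3% of that of Irak3, and was itself lower (log2 fold change -0.56, SE 0.0614, edgeR adjusted p = 2.48e-07). Reads of the shared bases cannot be assigned with certainty.

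Irak2 (ENSMUSG00000060477, chromosome 6, 113615428 to 113671987, GRCm39) sustains signalling after the initial response. It stood at 58.1, 54.5 and 54.7 CPM in normoxic-EV and 58.1, 56.7 and 56.5 CPM in hypoxic-EV. These values overlapped, and the log2 fold change of 0.035 had an interval of -0.08 to 0.15 at 2 SE either side. Irak4 (ENSMUSG00000059883, chromosome 15, 94441524 to 94479696, GRCm39), whose kinase is the first to join MyD88, stood at 18.0, 16.8 and 18.5 CPM and at 17.5, 17.03 and 15.7 CPM. It too overlapped between groups, at a log2 fold change of -0.090 with an interval of -0.26 to 0.08. Twf1 overlaps Irak4 on the other strand over 3865 bases, with a total count of 404% of that of Irak4. Twf1 was itself lower (log2 fold change -0.17, edgeR adjusted p = 0.0131), and reads of the shared bases cannot be assigned with certainty.

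With Irak1 added, a kinase gene outside the 10 that was not called (log2 fold change 0.06, edgeR adjusted p = 0.405), the make-up of the family can be given on FPKM. Irak3 made up 46.4 ± 0.414% of the summed FPKM of the 4 genes in normoxic-EV and 34.0 ± 1.03% with hypoxic-EV (SD, n = 3). Irak1 went from 26.3 ± 0.704% to 33.0 ± 0.407%, Irak2 from 21.3 ± 0.486% to 26.2 ± 0.386%, and Irak4 from 5.96 ± 0.170% to 6.76 ± 0.357%. Irak3 thus exceeded Irak4 by 7.79 ± 0.27-fold in normoxic-EV and by 5.04 ± 0.405-fold in hypoxic-EV. Shares sum to a whole, so a lower share of Irak3 raises the others. RefSeq lists a pair of starts for Irak3, and no searched motif lay before either. The promoter of 1 start held 19 CpG in 250 bases and that of the other held 6, which was the median over all promoters. The promoter with more CpG is shown as that of the family member that differed most (GRCm38.p6, chr10:120201598-120201847, minus strand, no capitals because no motif matched).
Irak3 promoter: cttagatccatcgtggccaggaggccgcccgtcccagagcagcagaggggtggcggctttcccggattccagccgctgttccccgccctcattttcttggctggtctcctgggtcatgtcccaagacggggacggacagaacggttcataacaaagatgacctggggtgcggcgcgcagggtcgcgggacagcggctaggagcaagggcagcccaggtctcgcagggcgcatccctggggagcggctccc

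**Figure D4:**
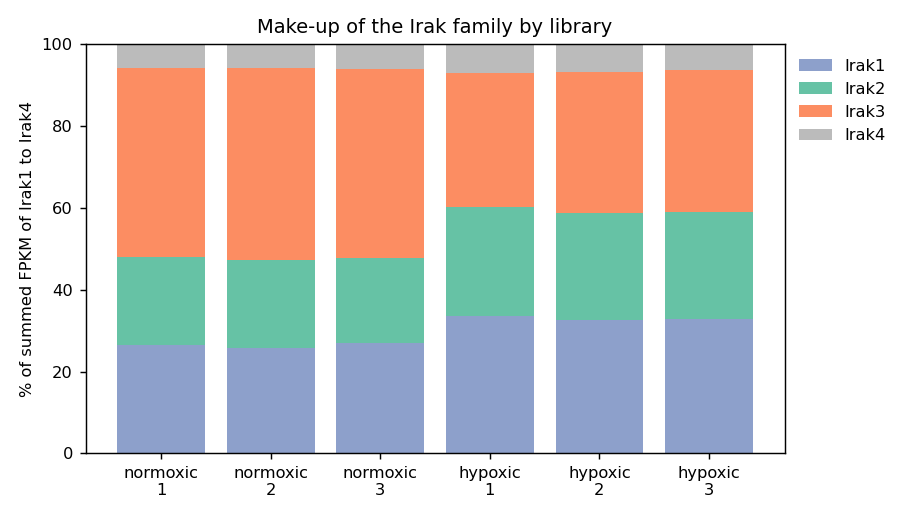
Share of each of Irak1, Irak2, Irak3 and Irak4 in their summed FPKM (y axis, percent, from 0) in each of the 6 libraries. The Irak3 segment holds about 46.4% in the normoxic-EV libraries and about 34.0% in the hypoxic-EV libraries.

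The ubiquitin-editing pair was lower, Tnfaip3 by more than Tnip1. Tnfaip3 (ENSMUSG00000019850, chromosome 10, 18876658 to 18891405, GRCm39) encodes A20, which removes and adds ubiquitin chains on signalling proteins and is a known NF-kB target. It stood at 27.0, 23.7 and 23.5 CPM in normoxic-EV and 18.2, 17.5 and 18.5 CPM in hypoxic-EV. The groups were separate, with normoxic-EV replicate 1 above the rest, and the log2 fold change was -0.45 (SE 0.0796). Tnip1 (ENSMUSG00000020400, chromosome 11, 54801611 to 54853743, GRCm39) encodes ABIN1, which binds A20 and ubiquitin chains. It was far more abundant, at 241, 238 and 221 CPM in normoxic-EV and 204, 204 and 216 CPM in hypoxic-EV. The groups lay close to each other without overlap, and its log2 fold change of -0.16 (SE 0.0482) was no longer called without normoxic-EV replicate 1 (-0.14). On FPKM, Tnip1 exceeded Tnfaip3 by 19.3 ± 1.13-fold in normoxic-EV and 23.5 ± 0.529-fold with hypoxic-EV (SD, n = 3), and these ratios did not overlap.

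Of the 10 genes, 8 had 1 or more promoters in the RefSeq table, 10 promoters in all, and Cd14 and Ly96 were not searched. Searched on both strands of the 250 bases before the start, the NF-kB consensus was found in 1 promoter each of Tnfaip3 and Tnip1 alone, that is in 2 of 10 promoters. It occurs in 3.90% of 32841 promoters of the same length. The AP-1 motif TGANTCA, present in 6.75% of promoters, was found before Tnfaip3, and the interferon motif, present in 2.98%, before Myd88. A second Tnfaip3 promoter (GRCm38.p6, chr10:19011964-19012213, minus strand) held none of the searched motifs. A match is a run of letters and not evidence of binding. The Tnfaip3 promoter that held matches (GRCm38.p6, chr10:19015411-19015660, minus strand) is shown 5′ to 3′. Capitals mark its AP-1 motif and both NF-kB matches, which begin 125 and 12 bases before the start. In the Tnip1 promoter (GRCm38.p6, chr11:54962941-54963190, minus strand), capitals mark 3 NF-kB matches that overlap each other, the farthest beginning 58 bases before the start.
Tnfaip3 promoter: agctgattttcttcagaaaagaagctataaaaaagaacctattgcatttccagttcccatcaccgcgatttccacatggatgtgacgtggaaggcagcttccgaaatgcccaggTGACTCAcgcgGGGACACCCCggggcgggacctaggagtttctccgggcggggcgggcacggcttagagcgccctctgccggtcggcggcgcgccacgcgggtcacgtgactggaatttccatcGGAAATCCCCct
Tnip1 promoter: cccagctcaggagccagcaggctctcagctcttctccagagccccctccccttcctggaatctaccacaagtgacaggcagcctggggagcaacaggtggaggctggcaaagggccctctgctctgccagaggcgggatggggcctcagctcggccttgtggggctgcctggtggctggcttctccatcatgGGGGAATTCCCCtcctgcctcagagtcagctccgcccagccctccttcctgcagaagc

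Aoah (ENSMUSG00000021322, chromosome 13, 20978283 to 21220787, GRCm39, plus strand) encodes the enzyme that inactivates LPS, and had the largest difference of the 10 genes. It was counted at 1758, 1900 and 2354 reads in normoxic-EV and 523, 631 and 798 reads in hypoxic-EV. Scaled for depth these were 105, 111 and 104 CPM against 30.8, 32.2 and 34.3 CPM. The lowest normoxic-EV library exceeded the highest hypoxic-EV library by far more than the spread in either group, whose coefficients of variation were 3.28% and 5.40%. The log2 fold change was -1.71 (SE 0.0574), larger in size than that of 99.3% of tested genes, and it ran from -1.76 to -1.68 over all alternatives. Genes that overlap Aoah held at most 0.276% of its count. In the authors' deposited table of 462 genes, in which each gene differs by at least 2-fold, Aoah was the single gene of the 10 listed, with a log2 fold change of -1.71.

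Aoah was lower relative to the recognition genes Cd14 and Ly96, which follows from its larger fold change. On FPKM the ratio of Aoah to Cd14 stood at 0.0330 ± 0.00109 with normoxic-EV and 0.0111 ± 0.000295 with hypoxic-EV, and that of Aoah to Ly96 was 1.74 ± 0.227 and 0.684 ± 0.0869 (SD, n = 3). Neither ratio overlapped between the groups. The Aoah promoter is shown because the gene differed most. It is CpG-poor, with 2 CpG in 250 bases, fewer than the median of 6, and held none of the searched motifs (GRCm38.p6, chr13:20793863-20794112, plus strand, 5′ to 3′, no capitals).
Aoah promoter: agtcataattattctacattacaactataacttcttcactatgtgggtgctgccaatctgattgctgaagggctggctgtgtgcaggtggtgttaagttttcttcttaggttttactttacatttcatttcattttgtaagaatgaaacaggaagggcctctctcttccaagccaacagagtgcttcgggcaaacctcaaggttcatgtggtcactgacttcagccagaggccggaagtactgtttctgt

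Other genes of the pathway were taken from 5 lists, 71 genes in all, of which 62 passed the filter. Of these 15 rose and 22 fell, or 59.7% called beside 44.2% of all tested genes, with a median log2 fold change of -0.03. The lists were written with earlier results of these data known, and no set test was made.

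Among 10 tested genes of recognition, 4 rose and 1 fell (median log2 fold change 0.09), beside 22.7% higher and 21.5% lower of all tested genes. Tlr4, the receptor gene itself, rose slightly, from 89.9 ± 1.396 to 99.0 ± 5.66 CPM (n = 3, SD), a log2 difference of 0.14 (SE 0.0521) with an edgeR adjusted p of 0.0351, the direction opposite to Cd14 and Ly96. That call ended without hypoxic-EV replicate 2 (log2 fold change 0.09, edgeR adjusted p = 0.13), without each normoxic-EV replicate in turn and in DESeq2 (adjusted p = 0.0533); over all alternatives the adjusted p ran from 0.0248 to 0.13. A non-coding gene on the same strand shares 1557 bases with Tlr4, with 10.7% of its count. That non-coding gene was not called (log2 fold change 0.20, edgeR adjusted p = 0.18). Casp4, which in the mouse encodes the caspase-11 sensor of LPS in the cytosol, fell from 85.2 ± 4.06 to 37.2 ± 1.0003 CPM (log2 fold change -1.19, edgeR adjusted p = 8.07e-13). Casp4 was the only gene of these 5 lists in the authors' deposited table (log2 fold change -1.19). Rab7b, whose product steers TLR4 to lysosomes, rose from 13.4 ± 0.141 to 22.4 ± 1.83 CPM (edgeR adjusted p = 3.91e-07). Cd180 and Itgam, which encode an LPS receptor relative and an integrin chain, had log2 fold changes of 0.19 and 0.16 (edgeR adjusted p = 0.0165 and 0.0221). The Cd180 call ended without normoxic-EV replicate 3 (0.119, edgeR adjusted p = 0.14, range over alternatives 0.00539 to 0.14). The Itgam call ended without hypoxic-EV replicate 2 (log2 fold change 0.095, edgeR adjusted p = 0.106) and without normoxic-EV replicate 1 (log2 fold change 0.136, edgeR adjusted p = 0.0915). Its adjusted p ranged from 0.0064 to 0.106 over the alternatives. Without hypoxic-EV replicate 2 or normoxic-EV replicate 1, 2 genes of this list rose rather than 4, and without hypoxic-EV replicate 2, 2 fell. No library held a count of Lbp or Tril, and a count of 0 allows up to 3 counts, at most 0.179 CPM.

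Among the 8 further adaptor genes, 4 fell and 1 rose (median -0.20), beside 21.5% lower and 22.7% higher of all tested genes. Ticam2, the gene of the adaptor TRAM that bridges TLR4 and TRIF, fell from 52.8 ± 4.40 to 33.6 ± 1.3997 CPM (SD, n = 3), a log2 difference of -0.65 at an edgeR adjusted p of 1.07e-07. Ticam2 shares 14299 bases with Tmed7 on the same strand, which had 619% of its count, so its reads are uncertain. Tmed7 was not called (log2 fold change -0.09, edgeR adjusted p = 0.151). Tirap, the gene of the adaptor that brings MyD88 to the membrane, fell from 48.2 ± 0.776 to 39.0 ± 2.45 CPM (edgeR adjusted p = 0.000495), and shares 117 bases with Srpr on the other strand. Srpr had 856% of the count of Tirap and was itself lower (log2 fold change -0.43, edgeR adjusted p = 6.92e-08), so reads of the shared bases cannot be assigned with certainty. Pik3ap1, encoding a phosphoinositide 3-kinase adaptor, and Tollip, encoding an IRAK-binding inhibitor, fell by log2 fold changes of -0.51 and -0.45 (edgeR adjusted p = 1.06e-08 and 2.55e-07). Ripk1, a kinase gene of the TRIF arm and the gene that rose, did so by 0.28 on the log2 scale (edgeR adjusted p = 0.000698). It shares 432 bases with Serpinb6a on the other strand, which had 299% of its count. Serpinb6a was not called (log2 fold change -0.01, edgeR adjusted p = 0.861).

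In the list of kinases, ubiquitin enzymes and transcription factor steps below the adaptors, 5 of 19 tested genes rose and 6 fell. Of all tested genes, 22.7% were called higher and 21.5% lower. The log2 fold changes of the list lay between -0.39 and 0.22 (median -0.03). Traf6, the ubiquitin ligase gene directly below the IRAKs, rose from 60.5 ± 1.06 to 66.8 ± 0.801 CPM (SD, n = 3), a log2 difference of 0.14 at an edgeR adjusted p of 0.0292. The Traf6 call ended in DESeq2 (adjusted p = 0.06), without hypoxic-EV replicate 3 (edgeR adjusted p = 0.07), without normoxic-EV replicate 2 (0.0872) and without normoxic-EV replicate 3 (0.0959), in a range over alternatives of 0.0281 to 0.0959. Ikbkb, the gene of the kinase that releases NF-kB, rose by 0.22 on the log2 scale (edgeR adjusted p = 0.0016), and Tab3, Map3k7 and Ikbkg rose by 0.20, 0.17 and 0.16 (0.0134, 0.0147 and 0.0114). Without normoxic-EV replicate 2 the calls of Tab3 (edgeR adjusted p = 0.0841, range over alternatives 0.00744 to 0.0841) and Map3k7 (0.0786, range 0.0107 to 0.0786) ended, and that of Map3k7 also without hypoxic-EV replicate 2 (0.053). The Ikbkg call ended without normoxic-EV replicate 1 (edgeR adjusted p = 0.0577, range 0.0111 to 0.0577), and G6pdx, which overlaps Ikbkg on the other strand, had 234% of its count. G6pdx was not called (log2 fold change 0.03, edgeR adjusted p = 0.654). Tank and Ikbke, genes of the TRIF arm, fell by log2 fold changes of -0.36 and -0.39 (edgeR adjusted p = 1.02e-05 and 1.86e-05), and Ube2n by -0.17 (0.00688). The Ube2n call ended without normoxic-EV replicate 1 (edgeR adjusted p = 0.0587, range over alternatives 0.00313 to 0.0587). Ube2d3, Tbk1 and Tab2 also fell, by log2 fold changes of -0.15, -0.14 and -0.13 (edgeR adjusted p = 0.0116, 0.0342 and 0.0322). Chuk was not called (log2 fold change -0.05, edgeR adjusted p = 0.494). Without normoxic-EV replicate 2, 2 genes rose rather than 5, and without hypoxic-EV replicate 1 or normoxic-EV replicate 1, 3 or 2 genes fell rather than 6.

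Among 18 genes listed as restraints or ubiquitin regulators of the pathway, 8 fell and 3 rose (median -0.06). Of all tested genes, 21.5% were called lower and 22.7% higher. Not all of the 18 restrain the pathway: Rnf31, Rbck1 and Sharpin encode a ubiquitin ligase complex that promotes NF-kB signalling. Sharpin was among the 8 (log2 fold change -0.23, edgeR adjusted p = 0.0453), and Rnf31 and Rbck1 were not called. Inpp5d, encoding the lipid phosphatase SHIP1, rose from 119 ± 4.98 to 164 ± 2.27 CPM (SD, n = 3), a log2 difference of 0.47 at an edgeR adjusted p of 7.20e-08. Sigirr, encoding a receptor that dampens IL-1 and Toll-like signalling, rose from 8.55 ± 0.755 to 13.4 ± 0.855 CPM (edgeR adjusted p = 4.40e-05), and Il1rl1, encoding the IL-33 receptor, rose by 0.38 on the log2 scale. Rnf11, encoding a component of the A20 complex, and Tnfaip8l2, encoding TIPE2, fell by log2 fold changes of -0.30 and -0.44 (edgeR adjusted p = 3.07e-05 and 0.000119). Usp18, Trafd1 and Tnip3 also fell, by log2 fold changes of -0.40, -0.33 and -0.27 (edgeR adjusted p = 0.000298, 0.000821 and 0.0147). Otud7b and Otulin each fell by -0.16 (edgeR adjusted p = 0.00855 and 0.0451). Without hypoxic-EV replicate 1 or normoxic-EV replicate 1, 5 genes of the list fell rather than 8. Of 7 tested genes of LPS uptake and lipid transport, 2 rose and 3 fell (median -0.01), beside 22.7% higher and 21.5% lower of all tested genes. Abcg1 and Abca1, sterol exporter genes, fell by log2 fold changes of -0.41 and -0.39 (edgeR adjusted p = 4.10e-07 and 2.17e-05), and Cd36, a scavenger receptor gene, by -0.16 (0.0157). The Cd36 call ended without hypoxic-EV replicate 1 (log2 fold change -0.117, edgeR adjusted p = 0.0814), normoxic-EV replicate 1 (-0.153, adjusted p = 0.0526) and normoxic-EV replicate 2 (-0.132, adjusted p = 0.0965). Its adjusted p ranged from 0.00144 to 0.0965 over the alternatives. Scarb1, an HDL receptor gene, rose by 0.33 on the log2 scale (edgeR adjusted p = 0.000802). Pltp, a phospholipid transfer protein gene, rose from 16.2 ± 0.708 to 28.5 ± 3.08 CPM (edgeR adjusted p = 1.19e-07), but it overlaps Ctsa, whose count was 3287% of its own. Ctsa was not called (log2 fold change -0.05, edgeR adjusted p = 0.434).

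**Figure D5:**
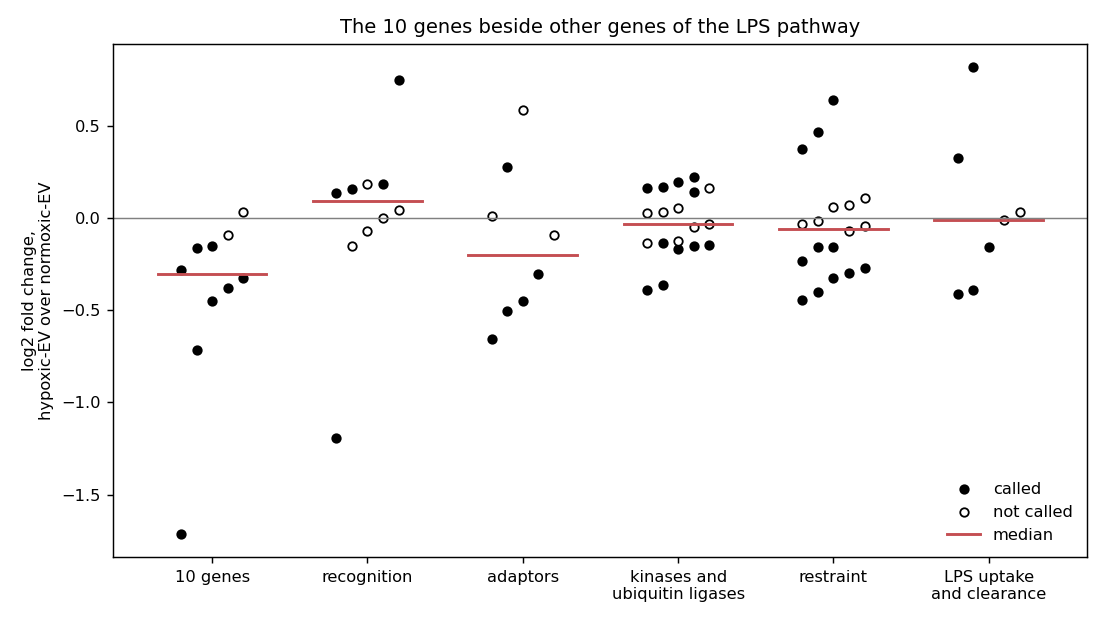
Log2 fold change of hypoxic-EV over normoxic-EV (y axis) for the 10 genes and for the tested genes of 5 pathway lists, with filled points called by edgeR, open points not called and a red line at each median. The points of the 10 genes lie between -1.71 and 0.035, and each of the 5 lists holds points on both sides of 0.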

How the data were processed

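HISAT2, featureCounts, DESeq2 and the GRCm39 build appear in the submitters' processing notes. No source used here gives versions, annotation or strand setting. A whole-number count per gene and an FPKM value were deposited by the authors for each library. For each of 26398 genes with a count, the FPKM equalled count over library total and over 1 length, within a relative tolerance of 1e-06. The authors' deposited table of their comparison lists 462 genes, each with a log2 fold change, a p-value and an adjusted p-value. Their DESeq2-normalized table was not used.

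Groups came from the treatment in the labels. Libraries of a group differed by more than counting noise (chi-square per degree of freedom 2.72 to 5.84 over genes with at least 20 counts in a pair), so none was taken for a copy of another library. The test of the counts was that of edgeR 4.0.16 under R 4.3.3 (TMM, filterByExpr with a minimum count of 10 and minimum total of 15, quasi-likelihood F-test, two-sided, Benjamini-Hochberg over 13303 genes, called at an adjusted p under 0.05). The script was tested on simulated counts. CPM are TMM-scaled, ± is SD over 3 libraries, and the SE is the size of the log2 fold change over the square root of F. Alternatives were DESeq2 1.42.0, limma 3.58.1 voom, RLE size factors, no filter, a replicate block and leaving out each library.

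The members and lists were chosen with earlier results of these data known. Named in the text were the 10 genes, Tlr4, Tirap, Ticam2, Irak1 and Traf6, and in each list up to 4 called genes of lowest adjusted p with at least 5 CPM. Genes overlapping a named gene and markers of the cell type check were named after their values were seen. So were other called genes of a list (Ripk1, Tab3, Map3k7, Ikbkg, Il1rl1, Cd36, Ube2d3, Tbk1, Tab2, Sharpin, Usp18, Trafd1, Tnip3, Otud7b and Otulin). The same holds for Chuk, Rnf31 and Rbck1, which were not called, and for Lbp and Tril, which were not tested. Limits from a count of 0 cover counting error only, because reads lacking molecular identifiers need not be separate molecules. Promoters are RefSeq's, GRCm38.p6, a build other than that of the counts, and were matched by symbol.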

Additional observations from a re-analysis of the deposited data

How the results depend on the processing

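Across the alternatives 0 of the 10 genes were called higher, and 6 to 8 were called lower without each library in turn, 6 by DESeq2 and 8 by limma voom, with RLE size factors and without a filter. Aoah, Irak3, Tnfaip3 and Myd88 were called lower in every alternative. The call ended in at least 1 alternative for 4 of the 10 genes (Cd14, Ly96, Ticam1 and Tnip1) and for 9 of the other 29 genes followed, and no called direction reversed. Ube2d3, Tbk1, Tab2, Chuk, Sharpin, Rnf31, Rbck1, Usp18, Trafd1, Tnip3, Otud7b and Otulin were not followed gene by gene over the alternatives. Without each library in turn, the recognition list had 2 to 4 genes higher and 1 to 2 lower, the list of kinases and ubiquitin enzymes 2 to 5 higher and 2 to 7 lower, and the restraint list 5 to 7 lower; the cause was not tested. The replicate block gave 8 of the 10 genes lower and 0 higher, and 1 gene of those followed, Traf6, lost its call (edgeR adjusted p = 0.0532). Same-numbered libraries had correlations of deviations between -0.0177 and -0.0156, so the numbers were not taken to pair them, and no library correlated best with its own number. Ordered by CPM in place of FPKM, only 2 of the 10 genes in normoxic-EV and 3 in hypoxic-EV kept their place, because CPM do not correct for length. Counts of 142 to 222 a library limit the precision for Ly96.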
